A study of Mus musculus with 28 samples.

Results

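The genes described here are 10 regulators of messenger RNA in germ cells: *Dazl*, *Boll*, *Cpeb1*, *Cpeb2*, *Ybx2*, *Ddx25*, *Pabpc1*, *Pabpc2*, *Papolb* and *Tarbp2*. They were taken by name from the expression matrix, where they hold 50 of 94480 transcripts and, after summing the transcripts of each gene, make up 10 of 27978 genes. The study profiled polyadenylated RNA by RNA-seq in 28 mouse libraries from 13 animals to follow germ cell development with and without *Csmd1*, a complement regulatory gene. Of these libraries, 20 came from germ cells sorted by flow cytometry on Hoechst staining of DNA, 7 from whole testes and 1 from a whole ovary. The sorted gates were labelled spermatogonia (2 wildtype and 2 knockout libraries), primary spermatocytes (2 and 4), secondary spermatocytes (2 and 3) and spermatids (3 and 2), from 3 wildtype and 5 knockout males. The whole testes came from 2 wildtype and 5 knockout males, and the ovary from 1 wildtype female. All mice carry the strain label C57BL/6, and the methods give a mixed 129SvEvBrd and C57BL/6 origin for the knockout line. The knockout is constitutive, so every cell type of the animal carries it: a lacZ/neomycin cassette stands in place of *Csmd1* exon 1 with some of the following intron, and wildtype siblings served as controls. The methods give 40 ± 1 days as the age of males used for sorting. An age for the single animal (40 days) is given only for mice 178 and 351. In mice 178, 648 and 286 both sorted cells and a whole testis were sequenced, and the methods describe sorting 1 testis of a male and using the other whole. The study profiled whole testes of immature males, at 20 days, and of mature males, at 40 days. For the whole testes of 214, 269, 273 and 308 the sources used here give no age. For sorted males other than 178 and 351 there is only the general statement of the methods. The whole testes may therefore differ in age, and so may the sorted males.

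Male germ cells transcribe many messenger RNAs long before they translate them, because transcription stops as the spermatid nucleus condenses. RNA-binding proteins store these messages, poly(A) polymerases and poly(A)-binding proteins set the length and use of their tails, and proteins of the DAZ and CPEB families pick out which messages are translated. Loss of several of these factors, among them DAZL, BOLL, YBX2, DDX25, PAPOLB and TARBP2, is known to leave male mice infertile.

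On the GRCm38 assembly *Dazl* lies at chr17:50279395-50293636 and its relative *Boll* at chr1:55248658-55363469, both on the minus strand. *Cpeb1* lies at chr7:81347026-81455465 on the minus strand and *Cpeb2* at chr5:43233170-43289724 on the plus strand, where its exons overlap 137 nt of the antisense gene *Gm7854*, from which its reads may not be separable because strand handling is not given in the sources used here. The other positions are chr11:69935796-69941605 for *Ybx2* (plus strand), chr9:35536647-35558528 for *Ddx25* (minus), chr15:36595661-36609668 for *Pabpc1* (minus), chr5:142525838-142530076 for *Papolb* (minus) and chr15:102518192-102523676 for *Tarbp2* (plus). *Dazl*, *Ddx25*, *Pabpc2* and *Papolb* are represented by 1 transcript each, the other 6 genes by 5 to 13.

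Promoter windows of 250 bases upstream of the RefSeq start (GRCm38.p6) were at hand for 7 of the 10 genes, with 9 windows in all. They are shown for *Dazl* and *Cpeb1*, which fell from the spermatogonia gate to the primary spermatocyte gate. They are also shown for 3 genes that rose between these gates, *Ybx2*, *Ddx25* and *Papolb*. Each window runs 5′ to 3′ along the gene's own strand and ends at the base before the start. The windows are chr17:50293621-50293870 (minus), chr7:81454759-81455008 (minus), chr11:69935649-69935898 (plus), chr9:35558471-35558720 (minus) and chr5:142530077-142530326 (minus). Capitals mark TGACG (the core of the cyclic AMP response element), AACGG (the core bound by MYB proteins) and CCAAT (the box bound by NF-Y), each searched on both strands, so that a reverse complement is in capitals too.
Dazl: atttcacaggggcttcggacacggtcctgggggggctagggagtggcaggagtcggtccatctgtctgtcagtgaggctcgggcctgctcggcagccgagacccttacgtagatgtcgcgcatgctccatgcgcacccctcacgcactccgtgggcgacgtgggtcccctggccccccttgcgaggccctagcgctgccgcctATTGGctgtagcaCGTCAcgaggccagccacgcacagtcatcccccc
Cpeb1: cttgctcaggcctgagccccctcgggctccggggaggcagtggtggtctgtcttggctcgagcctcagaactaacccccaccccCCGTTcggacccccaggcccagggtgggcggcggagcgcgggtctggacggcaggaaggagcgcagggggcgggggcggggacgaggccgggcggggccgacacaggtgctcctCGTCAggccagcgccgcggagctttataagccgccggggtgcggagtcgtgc
Ybx2: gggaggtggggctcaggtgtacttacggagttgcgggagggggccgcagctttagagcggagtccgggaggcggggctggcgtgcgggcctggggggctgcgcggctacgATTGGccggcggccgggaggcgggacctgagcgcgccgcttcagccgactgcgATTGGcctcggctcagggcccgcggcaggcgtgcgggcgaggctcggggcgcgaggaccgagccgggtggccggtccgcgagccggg
Ddx25: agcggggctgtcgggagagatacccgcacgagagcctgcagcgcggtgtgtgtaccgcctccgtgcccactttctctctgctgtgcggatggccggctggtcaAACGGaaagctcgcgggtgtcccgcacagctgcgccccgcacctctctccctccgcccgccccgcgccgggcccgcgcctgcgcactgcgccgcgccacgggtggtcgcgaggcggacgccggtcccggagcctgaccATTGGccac
Papolb: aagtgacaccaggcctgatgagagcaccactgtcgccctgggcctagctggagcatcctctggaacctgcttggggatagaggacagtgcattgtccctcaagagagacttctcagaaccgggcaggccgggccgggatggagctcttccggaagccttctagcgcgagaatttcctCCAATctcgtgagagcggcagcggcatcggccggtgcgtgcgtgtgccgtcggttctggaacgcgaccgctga
TGACG was found in 3 of the 7 genes, *Dazl* (its first base 34 before the start), *Cpeb1* (52 before) and *Tarbp2* (108 before), against 17.8% of 32851 RefSeq promoter windows of this length. AACGG was found in *Ddx25* (147 before) and *Cpeb1* (166 before), against 14.5% of windows. CCAAT was found in 6 of the 7, all but *Cpeb1*, against 33.8% of windows, and lies 47 bases before the start of *Dazl*, 73 before that of *Papolb*, 9 before that of *Ddx25* and at 2 places in the window of *Ybx2* shown. The percentages are per window, and *Boll* and *Ybx2* have 2 windows each, of which 1 each holds CCAAT. Counted by window, CCAAT stands in 6 of the 9, TGACG in 3 and AACGG in 2. These matches describe the letters of short windows and are not tied here to the direction of change: TGACG stands in the windows of both genes that fell and in that of *Tarbp2*, which rose within all 3 mice that had both gates.

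Depth, estimated from the steps of the deposited values, was 23811214 to 61657609 mapped reads in 27 libraries (median 45377058) and is unknown for knockout 613, whose values do not fall on whole reads. The 6 spermatogonial markers summed to 106 to 250 RPKM in the spermatogonia gate and to 5.65 to 100 RPKM in the primary spermatocyte gate, while the 6 primary spermatocyte markers overlapped between these gates (202 to 830 and 375 to 1047 RPKM). Libraries stood apart in late spermatid transcripts (*Prm1*, *Prm2*, *Tnp1*, *Tnp2*, *Odf1*, *Smcp*), which in the spermatogonia gate summed to 12398 RPKM in knockout 544 against 9.01 to 578 RPKM in the other 3 libraries, and in the spermatid gate to 524 and 608 RPKM in mice 286 and 648 against 8051 to 8671 RPKM in the other 3. The label or the sort of the knockout 544 spermatogonia library is therefore in doubt. Which of them is wrong, if either, is not known, and the label was kept. The libraries fall into 4 quantification batches by the transcripts left without a value. Full-length *Csmd1* measured 0.025 to 0.264 RPKM in wildtype and 0.028 to 0.629 RPKM in knockout testes, and its highest values in male libraries were those of knockout 544 spermatids (2.0) and spermatogonia (1.54), against at most 0.517 RPKM in wildtype males. The value covers all exons and not the deleted part alone, so it does not check the genotype labels.

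The first comparison asks which of these genes differed between the gates labelled spermatogonia and primary spermatocytes. On the log2(RPKM + 0.1) scale *Dazl* and *Cpeb1* fell, by 2.48 and 2.66, and *Ybx2*, *Pabpc2*, *Papolb* and *Ddx25* rose, by 2.34, 2.07, 1.73 and 1.64. Thus 6 of the 10 genes passed an adjusted p of 0.05 (limma, Benjamini-Hochberg), 4 higher and 2 lower, where 32.6% of 19025 genes tested passed, 9.97% higher and 22.6% lower. The median difference of the 10 genes was 1.34 against -0.26 for all genes tested. The split of calls over all genes depends on scaling: 30.6% of calls were higher as deposited, and 52.4% (3290 higher, 2994 lower) after quantile normalization, which moved the median of all genes to 0.08 and turned the direction of none of the 10 genes. Markers of somatic cells fell in the same step: all 6 of peritubular and stromal cells (sums of 16.5 to 409 RPKM in spermatogonia and 1.47 to 26.4 in primary spermatocytes), 5 of 6 of macrophages (6.48 to 50.1 and 1.12 to 5.72), 3 of 5 tested of Sertoli cells (18.6 to 29.0 and 1.47 to 10.8) and 2 of 6 of Leydig cells, as did all 6 of spermatogonia. The highest of these somatic sums in spermatogonia were those of wildtype 648. It had 409 RPKM for peritubular and stromal cells (16.5 to 102 in the other libraries), 50.1 for macrophages (6.48 to 12.5) and 214 for Leydig cells (7.50 to 21.7). The part of these cells in the differences of the 10 genes was not tested. RPKM is relative to all RNA of a library, and in sorted pools fewer cells of a type and less RNA per cell cannot be told apart.

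**Figure D1:**
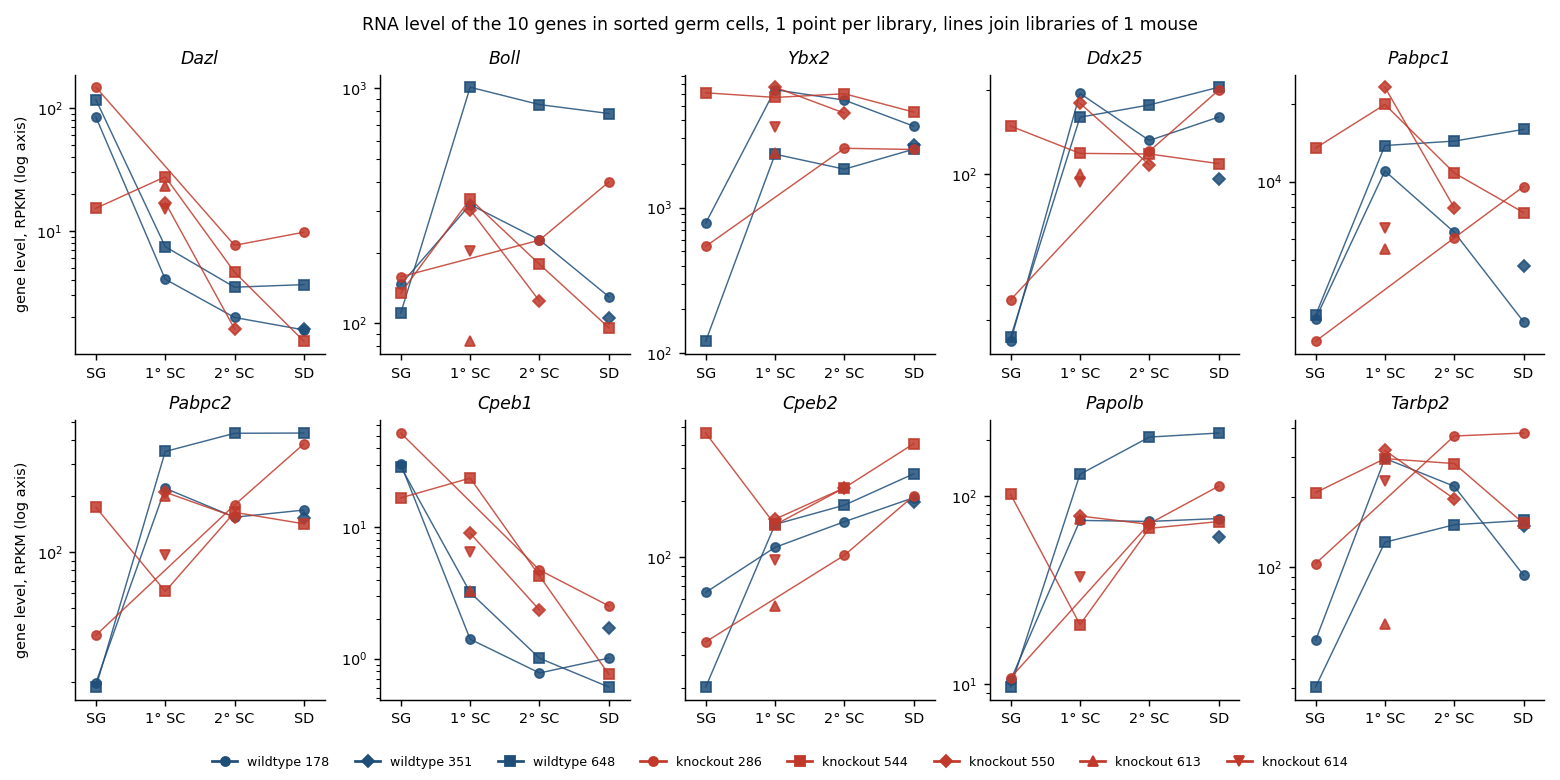
Summed RPKM (log axis) of each gene in the 20 sorted libraries by gate (SG, spermatogonia; 1° SC and 2° SC, primary and secondary spermatocytes; SD, spermatids), with 1 point per library, lines joining libraries of 1 mouse and colour for genotype. Within wildtypes 178 and 648 and within knockout 286, *Dazl* and *Cpeb1* are highest at SG, within knockout 544 both rise from SG to 1° SC, and the knockout 544 spermatogonia library (red square at SG) lies apart from the other 3 in most panels.

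*Dazl* encodes an RNA-binding protein that promotes translation in spermatogonia and on entry into meiosis. In spermatogonia it measured 84.4 RPKM in wildtype 178, 117 in wildtype 648, 147 in knockout 286 and 15.3 in knockout 544. In primary spermatocytes it ranged from 4.06 to 27.6 RPKM, with a median of 16.1 over 6 libraries. The spermatogonia of 178, 648 and 286 lay above all primary spermatocytes and those of knockout 544 lay among them, so the ranges overlapped. The difference of -2.48 (SE 0.67, adjusted p = 0.00814 by limma) was -3.43 without the knockout 544 spermatogonia library. Within mice it was -4.34 in 178, -3.95 in 648 and 0.84 in 544.

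*Boll*, a DAZ family member of meiotic and later male germ cells, did not pass the test. It measured 146, 110, 158 and 134 RPKM in the spermatogonia of wildtype 178, wildtype 648, knockout 286 and knockout 544, the narrowest spread relative to its mean of the 10 genes in that gate (137 ± 20.2, SD, n = 4). Primary spermatocytes ran from 83.8 to 1012 RPKM, with a median of 312. The lowest was knockout 613, whose sums of overlapping transcripts are lower by construction. The other 5 ran from 204 RPKM upward and lay above all spermatogonia, and the highest was wildtype 648. The difference was 1.21 (SE 0.63, adjusted p = 0.15 by limma), and with the mouse as a random block 1.52 (adjusted p = 0.0268). It was positive within each of the 3 mice with both gates, from 1.13 to 3.19.

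*Cpeb1* encodes the founding cytoplasmic polyadenylation element-binding protein, which activates stored messages in oocytes. It measured 30.3 and 28.9 RPKM in wildtype 178 and 648 spermatogonia, 52.3 in knockout 286 and 16.8 in knockout 544. Its primary spermatocyte values ran from 1.40 to 23.7 RPKM with a median of 4.90, and the only one that reached the spermatogonia was knockout 544. The fall was 2.66 (SE 0.57, adjusted p = 0.00194 by limma) and was 3.19 without the knockout 544 spermatogonia library. *Cpeb2*, a paralog whose protein also binds messages in the cytoplasm, measured 65.1, 20.3, 35.4 and 462 RPKM in the same 4 spermatogonia libraries in that order. It ran from 54.8 (knockout 613) to 160 RPKM in primary spermatocytes, or from 96.4 RPKM without knockout 613, so that knockout 544 spermatogonia exceeded every library of the later gate. The difference of 0.67 (SE 0.60, adjusted p = 0.431 by limma) did not pass the test, became 1.65 (adjusted p = 0.0057) without that library and turned negative in other settings given in the closing section.

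*Ybx2* encodes a germ cell Y-box protein that packages and represses stored messages. Its spermatogonia values were 783 RPKM in wildtype 178, 121 in wildtype 648, 542 in knockout 286 and 6136 in knockout 544. Primary spermatocytes ran from 2325 to 6700 RPKM with a median of 4647. Except for knockout 544 the spermatogonia lay below all primary spermatocytes. The rise was 2.34 (SE 0.71, adjusted p = 0.0163 by limma), and 3.36 without the knockout 544 spermatogonia library. On the longest coding transcript alone the rise was 2.01 (adjusted p = 0.0601), where knockout 613 measured 94.7 RPKM and the other primary spermatocytes 387 to 1096.

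*Ddx25* encodes a DEAD-box helicase of the chromatoid body region that takes part in export and translation of messages in meiotic and later cells. It measured 25.1, 26.0, 35.4 and 149 RPKM in the spermatogonia of wildtype 178, wildtype 648, knockout 286 and knockout 544, and 93.6 to 195 RPKM, with a median of 139, in primary spermatocytes. Again only knockout 544 reached the range of the later gate. The rise was 1.64 (SE 0.45, adjusted p = 0.00817 by limma).

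*Pabpc1* encodes the main cytoplasmic poly(A)-binding protein, and *Pabpc2* (chr18:39773497-39776082, plus strand) an intronless relative used in the testis. *Pabpc1* sums were 2954, 3047, 2422 and 13479 RPKM in the spermatogonia of wildtype 178, wildtype 648, knockout 286 and knockout 544, and 5503 to 23143 RPKM in primary spermatocytes, with a median of 12395. The difference of 1.46 (SE 0.63, adjusted p = 0.0829 by limma) passed with the mouse as a block (1.57, adjusted p = 0.0277) and without the knockout 544 spermatogonia library (2.07, adjusted p = 0.0103). *Pabpc2* measured 19.8, 18.8, 35.7 and 175 RPKM in the same order, and 61.6 to 349 RPKM with a median of 205 in primary spermatocytes, where the lowest library was that of mouse 544. Its rise was 2.07 (SE 0.61, adjusted p = 0.0132 by limma). Of the 3 mice with both gates, wildtypes 178 and 648 moved in the called direction for all 6 genes that passed, and knockout 544 moved the other way for each of them: *Pabpc2* by -1.50, *Papolb* by -2.30, *Ddx25* by -0.33, *Ybx2* by -0.11, *Dazl* by 0.84 and *Cpeb1* by 0.50. These values of knockout 544 rest on the spermatogonia library whose label or sort is in doubt. The transcripts of *Pabpc1* and *Pabpc2* share 82.7% of bases over 2422 aligned nt, with a longest identical run of 37 nt.

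*Papolb* encodes a poly(A) polymerase of the testis that extends tails in the cytoplasm. It measured 10.5, 9.63, 10.8 and 102 RPKM in spermatogonia of wildtype 178, wildtype 648, knockout 286 and knockout 544. In primary spermatocytes it ran from 20.7 to 131 RPKM with a median of 75.0. The first 3 spermatogonia libraries were close together and lay below all primary spermatocytes, whereas in mouse 544 the order was reversed, with 102 RPKM in spermatogonia and 20.7 in primary spermatocytes. The rise of 1.73 (SE 0.63, adjusted p = 0.0405 by limma) was the closest of the 6 to the threshold, and without a filter on low genes its adjusted p was 0.0584. Leaving out each mouse in turn, the rise ran from 1.13 to 2.93.

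*Tarbp2* encodes a double-stranded RNA-binding protein that works with Dicer and was also found to bind protamine messages. Its spermatogonia values of 48.0, 30.2, 103 and 210 RPKM in wildtype 178, wildtype 648, knockout 286 and knockout 544 overlapped the 56.5 to 319 RPKM (median 264) of primary spermatocytes. Without knockout 613, the lowest, that range began at 128 RPKM and only knockout 544 lay in it. The difference was 1.21 (SE 0.51, adjusted p = 0.0756 by limma). With the mouse as a block it was 1.48 (adjusted p = 0.0156), and it was positive within each of 3 mice, from 0.49 to 2.62.

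**Figure D2:**
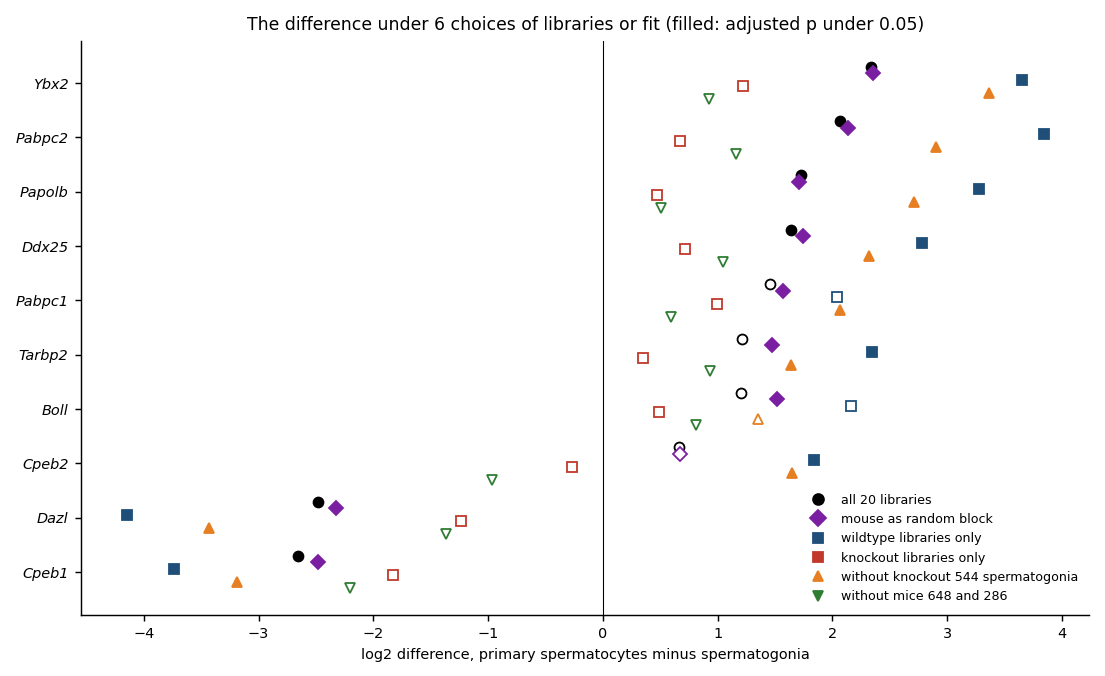
Log2 difference of each gene, primary spermatocytes minus spermatogonia, under 6 choices of libraries or fit (filled symbols: adjusted p under 0.05). The number of the 10 genes past the threshold is 6 with all 20 libraries, 9 with the mouse as a block, 8 in wildtype libraries, 0 in knockout libraries, 9 without the knockout 544 spermatogonia library and 0 without mice 648 and 286.

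The number of genes called depended on few libraries, as the plot of the difference under 6 choices shows. The 544 spermatogonia library, with its 12398 RPKM of late spermatid markers and the lowest sum of spermatogonial markers (106 RPKM), lay within the range of primary spermatocytes for 8 of the 10 genes and above it for *Cpeb2*, leaving out knockout 613, whose sums are lower by construction. On that basis all spermatogonia libraries lay below the primary spermatocytes for *Boll*, and the other 3 spermatogonia libraries lay outside the primary spermatocyte range for every gene. Without the knockout 544 spermatogonia library 9 of the 10 passed, all but *Boll*. Without wildtype 178, or without wildtype 648, only *Cpeb1* passed, and in knockout libraries alone none did, where 2 spermatogonia libraries, one of them that of 544, stand against 4. That wildtype and knockout mice differ in this step was not shown, since no gene passed the test of the interaction of genotype and gate.

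From primary to secondary spermatocytes none of the 10 genes passed the test in limma, where 9.18% of genes did (7.43% higher and 1.75% lower), and 2 had an unadjusted p under 0.05. These were *Dazl*, at -1.91 (SE 0.63, adjusted p = 0.059), and *Cpeb1*, at -1.22 (SE 0.53, adjusted p = 0.147). In secondary spermatocytes *Dazl* measured 1.99, 3.50, 7.66, 4.63 and 1.60 RPKM in wildtype 178, wildtype 648, knockout 286, knockout 544 and knockout 550. *Cpeb1* measured 0.776, 1.0, 4.73, 4.26 and 2.34 RPKM in the same libraries. Within the 4 mice that had both gates, *Dazl* and *Cpeb1* fell in every one, by 1.0 to 3.33 and by 0.78 to 2.45. Cell type markers moved in this step too: 4 of 6 of macrophages (sums of 1.12 to 5.72 RPKM in primary and 4.98 to 9.92 in secondary spermatocytes), 2 of 5 tested of Sertoli cells and 1 of 6 of round spermatids were called higher, and 2 of 6 of primary spermatocytes lower (375 to 1047 and 118 to 454 RPKM), and their part was not tested. With the mouse as a block *Dazl* passed (-1.99, adjusted p = 0.0158), and it also passed without the knockout 544 spermatogonia library (adjusted p = 0.0158), though the step itself does not include that library. *Boll* was lower within all 4 mice, by 0.25 to 1.29, and *Cpeb2* higher within all 4, by 0.34 to 0.66. The other members lay between -0.42 and 0.54. Over all genes 80.9% of calls in this step were higher as deposited and 49.0% after quantile normalization.

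From secondary spermatocytes to spermatids none of the 10 passed in limma, none had an unadjusted p under 0.05, and 1.24% of all genes passed (0.00526% higher and 1.23% lower). The differences ran from -0.57 (*Cpeb1*) to 0.59 (*Cpeb2*). Cell type markers moved in this step too: 2 of 6 of macrophages and 1 of 6 of Leydig cells were called lower. The median difference was 1.58 for the 6 round and 1.87 for the 6 late spermatid markers, none of them called, and the part of these markers was not tested. *Papolb* rose within all 4 mice with both gates, by 0.05 to 0.66. *Cpeb2* rose again within all 4 mice with both gates, by 0.43 to 1.05, reaching 209, 197 and 280 RPKM in the spermatids of wildtype 178, 351 and 648 and 214 and 406 RPKM in knockouts 286 and 544. *Dazl* ended at 1.57, 1.61 and 3.67 RPKM in these wildtype mice and at 9.79 and 1.27 RPKM in the 2 knockouts. *Ybx2* ran from 2505 to 4522 RPKM in spermatids, *Ddx25* from 95.7 to 205, *Pabpc2* from 142 to 439, *Papolb* from 60.3 to 217 and *Tarbp2* from 92.0 to 380. In all 5 these values overlapped those of both spermatocyte gates. Over the 4 gates together 7 of the 10 genes differed (limma F test), where 56.6% of all genes did. The 3 that did not pass were *Pabpc1* (adjusted p = 0.228), *Tarbp2* (0.0719) and *Boll* (0.343), and *Cpeb2* passed narrowly (0.0498).

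**Figure D3:**
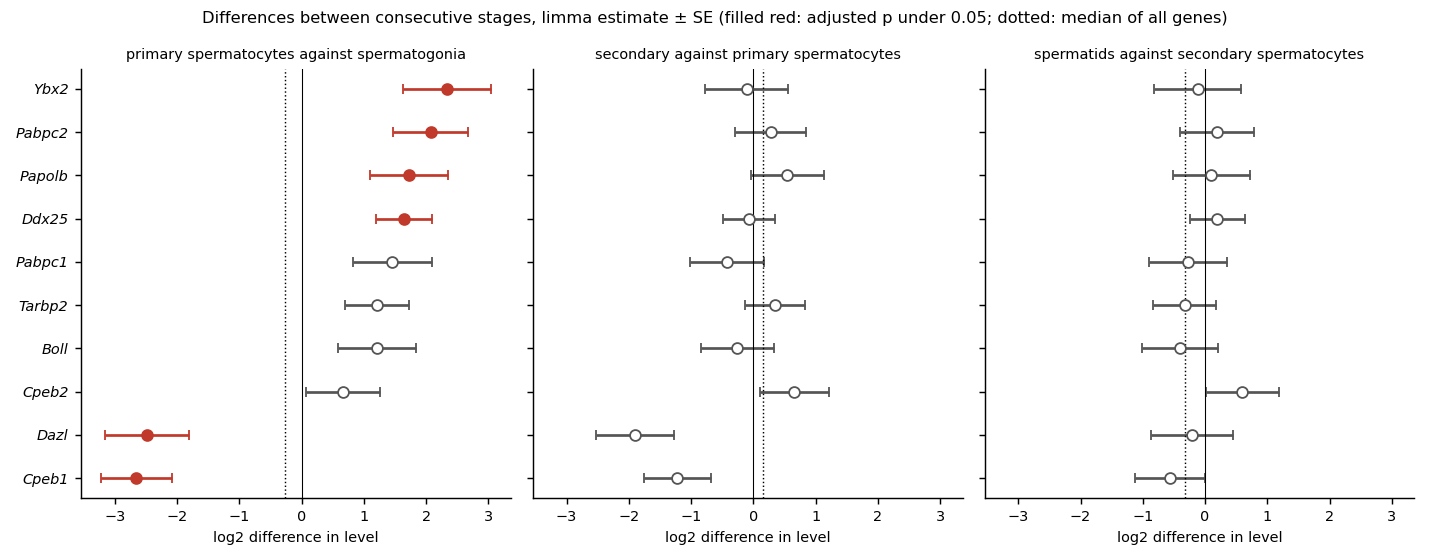
Limma log2 differences ± SE of the 10 genes for the 3 consecutive steps in all 20 sorted libraries (filled red: adjusted p under 0.05; dotted line: median of all genes tested). All 6 calls are in the step from spermatogonia to primary spermatocytes, with *Dazl* and *Cpeb1* below 0 and 4 genes above it.

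Ratios of a gene to its relative within a library do not depend on scaling between libraries, and were taken per length on the longest coding transcript, leaving out knockout 613. The ratio of *Boll* to *Dazl* was 0.333, 0.143 and 0.174 in the spermatogonia of wildtype 178, wildtype 648 and knockout 286, and 1.80 in knockout 544. Its median was 3.69, 15.0 and 15.5 in the 3 later gates in order, and among spermatids the lowest library had 6.75 and the highest 29.1. All 15 later libraries lay above all 4 spermatogonia libraries, and on this transcript above 1. Which of the 2 genes is the more abundant depends on the transcript. On the longest *Boll* transcript, the primary spermatocytes of knockouts 544, 550 and 614 lay below 1, at 0.557, 0.841 and 0.586. With summed transcripts, where reads shared by the 7 *Boll* transcripts count several times, the medians were 1.40, 17.9, 77.5 and 75.1 along the 4 gates, and the rise was the same in direction. The ratio rose within 3 of 3 mice in the first step, within 4 of 4 in the second and within 2 of 4 in the third. In primary spermatocytes it was 17.8 and 19.1 in the wildtype mice and 2.59 to 3.69 in knockouts 544, 550 and 614.

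The ratio of *Cpeb2* to *Cpeb1* was 1.99, 0.531 and 0.789 in the spermatogonia of wildtype 178, wildtype 648 and knockout 286, and 28.8 in knockout 544. Its median was 17.9, 110 and 174 in the 3 later gates in order, with a spermatid range of 79.7 to 623. It rose within 2 of 3 mice, then 4 of 4, then 4 of 4. *Papolb* stood at 0.247 to 0.312 of *Papola*, the general nuclear poly(A) polymerase, in 3 spermatogonia libraries and at 3.21 times it in knockout 544. The median ratio was 2.81, 4.20 and 3.48 in the later gates in order, and the lowest later library was knockout 544 primary spermatocytes at 0.566. With summed transcripts the medians were 0.0140, 0.127, 0.187 and 0.136 along the 4 gates, so the rise of the medians out of spermatogonia held and the order of the 2 enzymes did not. Within mice the ratio on the longest coding transcripts rose in 2 of 3, then 3 of 4, then 1 of 4. With sums these counts were 2 of 3, 3 of 4 and 0 of 4. On the longest coding transcripts *Pabpc2* stayed below *Pabpc1* in all 19 libraries, with medians of 0.0516, 0.0796, 0.129 and 0.185 along the 4 gates, and rose within 2 of 3 mice, then 4 of 4, then 3 of 4. The longest *Pabpc1* transcript (ENSMUST00000146327, 2916 nt) is annotated as a retained intron and not as coding. Set against it, *Pabpc2* was the higher in most libraries, with ratios of 0.361 to 2.43 in spermatogonia and 2.39 to 3.38 in spermatids. These ratios do not compare the coding transcripts of the 2 genes, on which *Pabpc2* was the lower in all 19 libraries. With 3 or 4 mice per step no exact test of these ratios can reach 0.05.

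**Figure D4:**
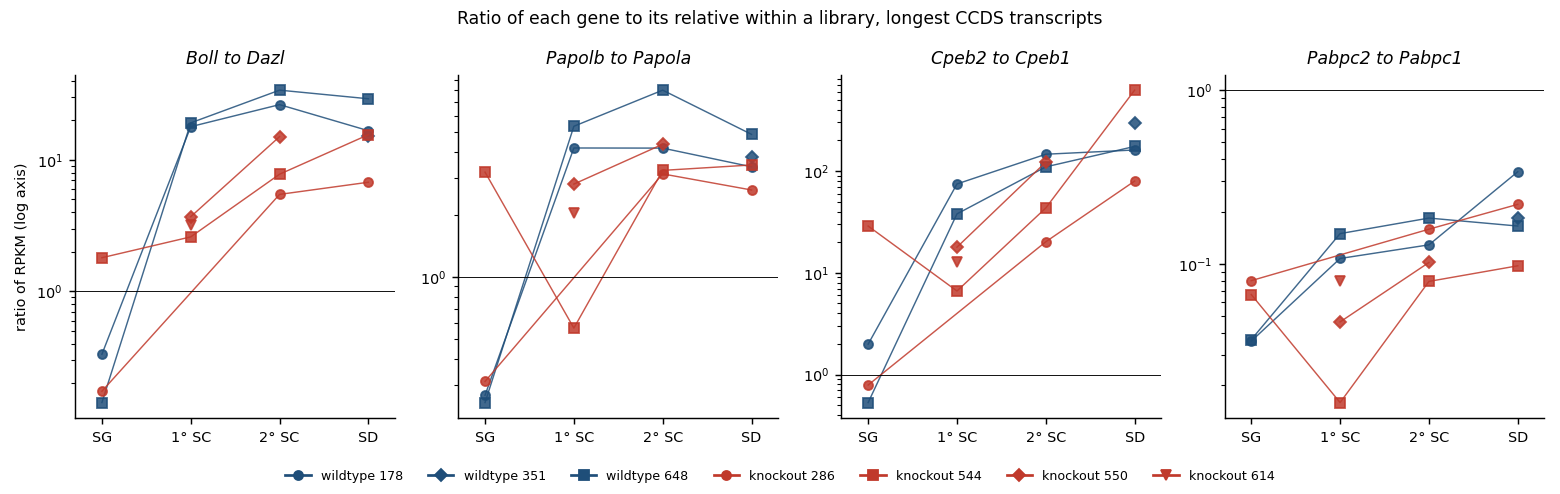
Ratio of RPKM (log axis) of each gene to its relative on the longest coding transcripts, with 1 point per sorted library, lines joining libraries of 1 mouse and the horizontal line at 1. Knockout 613 is left out because its transcript values are not comparable, and the ratio of *Boll* to *Dazl* on these transcripts lies higher in every later library than in the 4 spermatogonia libraries.

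Per length, on the longest coding transcript, *Pabpc1* had the highest mean of the 10 in every gate and *Cpeb1* the lowest, though not in every library: *Ybx2* exceeded *Pabpc1* in wildtype 178 spermatids (596 and 498 RPKM), and *Cpeb1* exceeded *Cpeb2* in the spermatogonia of wildtype 648 and knockout 286 and in the primary spermatocytes of knockout 613, and *Tarbp2* in wildtype 648 spermatogonia (3.83 and 3.56 RPKM). In spermatids the order of mean levels was *Pabpc1* (1438 ± 841 RPKM, SD, n = 5), *Ybx2* (521 ± 142), *Pabpc2* (257 ± 142), *Ddx25* (154 ± 50.5), *Papolb* (108 ± 63.9), *Boll* (48.6 ± 37.5), *Cpeb2* (29.8 ± 12.5), *Tarbp2* (20.4 ± 9.28), *Dazl* (3.58 ± 3.60) and *Cpeb1* (0.151 ± 0.0870). Neighbours in this order overlapped in range down to *Tarbp2*, and only the steps from *Tarbp2* to *Dazl* and from *Dazl* to *Cpeb1* did not overlap. In spermatogonia *Dazl* had the mean below *Pabpc1* and *Ybx2* at 91.0 ± 56.6 RPKM (SD, n = 4), where *Pabpc1* had 1034 ± 1061 and *Ybx2* 309 ± 462, and all neighbours overlapped. The *Ybx2* mean includes 999 RPKM in knockout 544, where *Dazl* measured 15.3. *Dazl* lay above *Ybx2* in wildtype 648 (117 and 20.4 RPKM) and knockout 286 (147 and 89.5), and below it in wildtype 178 (84.4 and 126). By the means over all libraries *Dazl* went from the third place in spermatogonia to the ninth in spermatids, and its place in single spermatogonia libraries differed.

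Sums of overlapping transcripts count shared reads more than 1 time, and the transcripts of 3 genes did not keep constant proportions between mice. In *Boll* the 147 nt transcript ENSMUST00000174065 (chr1:55348915-55360741) stood at 2.29 to 2.66 times the longest coding transcript in the 3 meiotic and later sorted libraries of mouse 648, against 0.800 to 1.62 times in 12 libraries of other mice, knockout 613 being left out of these transcript ratios because its transcripts do not share reads as in the other libraries. In *Cpeb2* the 640 nt transcript ENSMUST00000127599 (chr5:43237315-43246459) stood at 5.14 to 7.41 times in mouse 648 and 1.65 to 3.53 times in the others. The longest coding transcript of *Boll* itself measured 142, 118 and 107 RPKM in mouse 648 primary spermatocytes, secondary spermatocytes and spermatids, above the 19.7 to 72.5 RPKM of all other meiotic and later libraries. In *Pabpc1* an internal transcript (ENSMUST00000156793, chr15:36598301-36602346) stood at 3.16 to 21.7 times a transcript of the last exons (ENSMUST00000155116, chr15:36595907-36598019) in the same 12 libraries of other mice, at 3.31 to 4.03 in mouse 648 and at 1.25 in the ovary. Without knockout 613 the highest *Pabpc1* ratios of the sorted libraries, 21.7, 21.2 and 18.7, were those of knockout 550 and 544 primary spermatocytes and knockout 544 spermatogonia. Mouse 648 shares its quantification batch only with knockout 614, and what sets these proportions was not tested.

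The second question was whether *Csmd1* knockout changed these genes. In limma 0% of genes passed at an adjusted p of 0.05 in any of the 4 gates, in the interaction of genotype and gate or in whole testis, so none of the 10 did. With the quantification batch as covariate 402 genes passed in primary spermatocytes, none of the 10 among them, and with the mouse as a block 3 did. At an unadjusted p under 0.05 there were 4 of the 10 genes in the first gate, 2 in the next, 1 in secondary spermatocytes, 0 in spermatids, 0 in the interaction and 1 in whole testis. Over all genes these counts were 1018, 1666, 550 and 139 along the gates, 483 in the interaction and 2327 in whole testis. The median of all genes was itself higher in knockout, by 0.41 in primary spermatocytes and 0.44 in whole testis, and fell to -0.03 and 0.02 after quantile normalization.

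The 4 genes in spermatogonia were *Ybx2* (2.57, SE 1.08, adjusted p = 0.908), *Pabpc2* (2.03, SE 0.82, adjusted p = 0.874), *Tarbp2* (1.95, SE 0.78, adjusted p = 0.872) and *Ddx25* (1.5, SE 0.63, adjusted p = 0.907), by limma. Each was highest in knockout 544, the library rich in late spermatid transcripts whose label or sort is in doubt, and for *Ybx2* the other knockout, 286, lay between the 2 wildtypes. Within the batch that holds both wildtype 178 and knockout 286 the differences were -0.53 for *Ybx2*, 0.85 for *Pabpc2*, 1.10 for *Tarbp2* and 0.49 for *Ddx25*.

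In primary spermatocytes *Dazl* was 4.06 and 7.47 RPKM in wildtype 178 and 648, and 27.6, 17.0, 23.2 and 15.2 RPKM in knockouts 544, 550, 613 and 614. *Cpeb1* was 1.40 and 3.19 RPKM in the wildtypes and 23.7, 9.01, 3.29 and 6.52 RPKM in the knockouts. In both genes every knockout library lay above both wildtype libraries, with differences of 1.85 (SE 0.86, adjusted p = 0.563) and 1.91 (SE 0.74, adjusted p = 0.464) by limma. *Pabpc2* was the third gene whose genotypes did not overlap, at 221 and 349 RPKM in the wildtypes and 61.6 to 211 RPKM in the knockouts, so that 3 of the 10 genes did not, against 19.6% of 19025 genes. For *Dazl* and *Cpeb1*, within the batch of wildtype 648 and knockout 614, the differences were 1.02 and 1.01. The spermatogonial markers moved the same way, summing to 7.29 and 5.65 RPKM in the wildtype and 16.6 to 100 RPKM in the knockout primary spermatocytes, with a median difference of 2.62 over the 6 markers. So did the late spermatid markers, at 159 and 41.6 RPKM in the wildtypes and 269 to 446 RPKM in the knockouts (median difference 3.10), and the median of the 6 round spermatid markers was 1.75, although their sums overlapped. None of these markers passed in limma, and their part in the differences was not tested. In secondary spermatocytes the genotypes did not overlap for 4 of the 10 genes, *Cpeb1* with the knockouts above and *Boll*, *Ddx25* and *Papolb* with the knockouts below, where 24% of 19025 genes did not. For *Cpeb1* the difference was 1.92 (SE 0.78, adjusted p = 1 by limma), and its within-batch difference between knockout 286 and wildtype 178 was 2.46. In the same comparison the median difference was 1.75 for the 6 round spermatid markers, 1.78 for the 6 late spermatid and -1.26 for the 6 Leydig cell markers, none of which passed in limma, and their part was not tested. The spermatogonial markers had a median of 0.03 and summed to 11.7 and 8.90 RPKM in the wildtypes and 33.5, 13.4 and 8.75 RPKM in the knockouts.

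In whole testis *Tarbp2* measured 85.6 and 143 RPKM in wildtype 178 and 648, and 218, 202, 301, 308 and 160 RPKM in knockouts 214, 269, 273, 286 and 308. *Ybx2* measured 3436 and 1996 RPKM in the wildtypes and 5052, 3890, 4693, 5420 and 4091 RPKM in the knockouts. *Cpeb1* measured 5.05 and 6.35 RPKM in the wildtypes and 7.98, 16.7, 6.56, 9.48 and 21.7 RPKM in the knockouts. In these 3 of 10 genes the genotypes did not overlap, where 18.7% of 18766 genes did not. The knockout was higher by 1.06 for *Tarbp2* and by 0.81 for *Ybx2*, each with p = 0.0476 in a two-sided exact permutation test, the smallest that 21 arrangements can give, and by 0.98 for *Cpeb1* (p = 0.0952, same test). None of these 3 passed in limma (adjusted p 0.347, 0.408 and 0.522), and the other 7 genes had exact permutation p values from 0.238 to 0.952. Within the batch that holds wildtype 178 and the 5 knockouts the differences were 1.43, 0.42 and 1.14, and mouse 648 is the only testis outside it. The spermatogonial markers did not overlap between the genotypes either, summing to 22.1 and 21.4 RPKM in the wildtypes and 26.2, 56.7, 28.2, 54.6 and 151 RPKM in the knockouts in the same order (median difference 0.67, none of the 6 passing in limma), with the highest sums in 308 and 269, where *Cpeb1* was also highest, and their part was not tested. The Sertoli cell markers summed to 15.6 and 28.5 RPKM in the wildtypes and 24.9, 60.5, 16.9, 34.8 and 110 RPKM in the knockouts. They overlapped between the genotypes and were also highest in 308 and 269. Their median difference was 0.70, none passed in limma, and their part was not tested. The testes also differ in late spermatid markers, which summed to 6082 RPKM in wildtype 178 and 155 in wildtype 648, and to 9783, 26.5, 12125, 39.6 and 8.91 RPKM in knockouts 214, 269, 273, 286 and 308. Of these mice an age for the single animal is given only for 178 (40 days). The methods give 40 ± 1 days for sorted males, with 1 testis sorted and the other used whole. By that description 178, 648 and 286 would be of this age, but no age of their own is given for 648 and 286. The late spermatid sums of 648 and 286 (155 and 39.6 RPKM) lay far below the 6082 RPKM of 178. For 214, 269, 273 and 308 the sources used here give no age at all. The age of every testis but that of 178 is thus uncertain, and the part of age in the genotype differences was not tested. In the 3 testes rich in late spermatid markers (178, 214 and 273) the differences were 1.58 for *Tarbp2*, 0.50 for *Ybx2* and 0.51 for *Cpeb1*, and in the other 4 they were 0.59, 1.15 and 1.23. Each of these sets holds 1 wildtype testis, which in the second is 648, the testis outside the batch of the others, so there genotype, batch and mouse cannot be told apart. After quantile normalization of all 7 they were 0.43, 0.52 and 0.33.

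**Figure D5:**
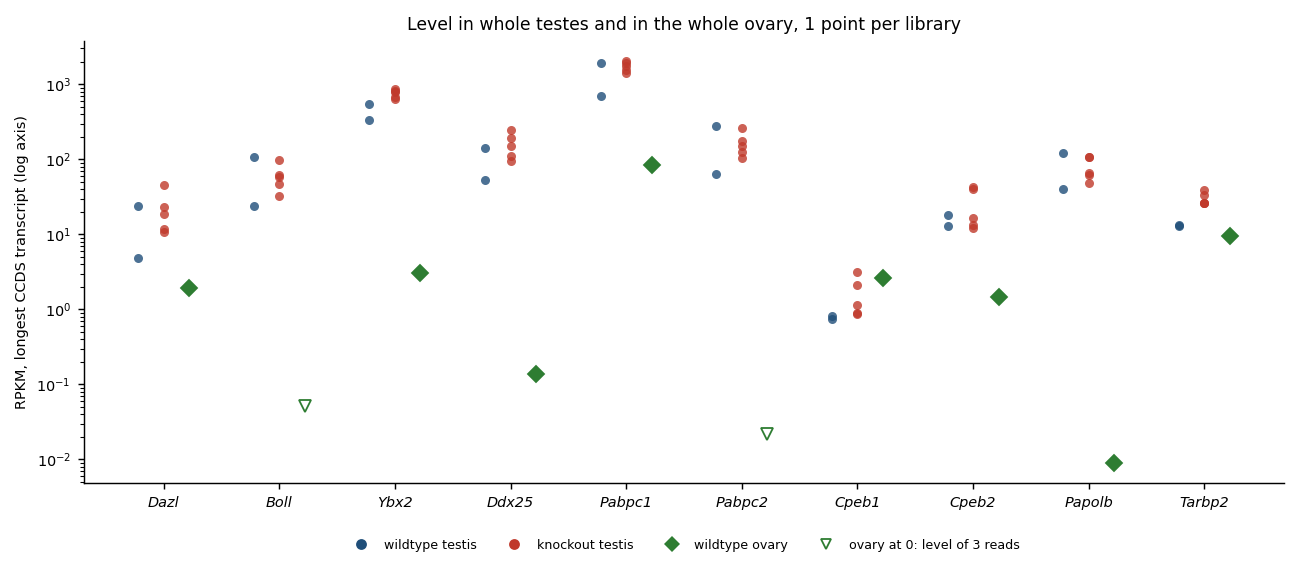
RPKM (log axis) of the longest coding transcript of each gene in 2 wildtype testes, 5 knockout testes and 1 wildtype ovary, with 1 point per library. The open triangles for *Boll* and *Pabpc2* mark the level of 3 reads in the ovary, where both are listed at 0, and only *Cpeb1* lies above the wildtype testes in the ovary.

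The last comparison sets the testis against the ovary, with 1 ovary and so no test. On the summed scale 8 of the 10 genes were more than 4-fold lower in the ovary and none was more than 4-fold higher, where 13.4% of 20564 genes were lower and 38.3% higher (51.8% in all). *Boll* and *Pabpc2* had no read on their coding transcripts in the ovary, which puts them at least 466.3-fold and 2913-fold below the lower of the 2 wildtype testes, mouse 178, when set against 3 reads. *Papolb* had 2 reads there (0.009 RPKM), and the mean of the wildtype testes over this measured value was 9044, with a counting interval of 2520 to 75181, which is another basis than the 2 lower bounds before it. These intervals are 95% and cover counting error only.

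*Ddx25* measured 0.136 RPKM in the ovary, from about 50 reads, and 53.6 and 143 RPKM in the wildtype testes, a ratio of 722 (545 to 968) per length. *Ybx2* summed to 17.9 RPKM in the ovary against 3436 and 1996 RPKM, a ratio of 142 (126 to 160) on the coding transcript. *Pabpc1* summed to 519 RPKM in the ovary, 15.9 times less than in wildtype testis per length, and *Cpeb2* to 7.39 RPKM, 10.6 times less. *Dazl*, which both sexes use, measured 1.95 RPKM in the ovary against 4.81 and 23.7 RPKM. *Tarbp2*, at 106 RPKM in the ovary, lay inside the wildtype testis range of 85.6 to 143 on summed transcripts, and on the longest coding transcript at 9.45 RPKM against 13.1 and 13.3, a testis to ovary ratio of 1.40 (1.30 to 1.5). *Cpeb1*, at 18.5 RPKM, was the only gene above both wildtype testes, 3.32 times higher per length. The 6 oocyte markers summed to 57.4 RPKM in this whole ovary, with 5 of them at 1 RPKM or more, against 3.35 to 6.98 RPKM in testes, and *Ddx4*, a germ cell helicase, measured 0.647 RPKM there against 77.0 to 347 RPKM in testes. Markers of other cells differed too. In the ovary and in testes they summed to 2797 and 6.42 to 25.5 RPKM for Leydig cells, 225 and 5.17 to 66.3 for peritubular and stromal cells, and 211 and 15.6 to 110 for Sertoli cells. The sums were 58.1 and 3.51 to 6.12 RPKM for macrophages, 0.958 and 136 to 544 for round spermatids, and 0.103 and 8.91 to 12125 for late spermatids. How much of the ovary library comes from oocytes, and the part of these cell types in the differences, was not tested.

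Relatives of the 10 genes did not move as a block in the first step. *Pabpc4*, a poly(A)-binding protein of many tissues, fell by 3.62 (SE 0.69, adjusted p = 0.000907 by limma), from 10.5 to 49.6 RPKM in spermatogonia to 0.442 to 7.08 in primary spermatocytes, and *Dicer1*, the partner of *Tarbp2* in microRNA processing, fell by 2.78 (SE 0.68, adjusted p = 0.00426). *Pabpc6* rose by 2.52 (SE 0.66, adjusted p = 0.00661) and *Ybx3*, a Y-box relative of *Ybx2*, by 2.08 (SE 0.71, adjusted p = 0.0302). *Papola* (-1.04), *Cpeb3* (-2.18), *Pabpc1l* (-1.59), *Prkra* (-0.47), *Papolg* (-0.13), *Cpeb4* (0.22), *Ddx4* (0.80) and *Ybx1* (0.95) did not pass. Among 49 tested of 50 other germ cell RNA regulators, a list that includes these relatives, 7 rose, 12 fell and 30 did not pass in this step, with a median of -0.13, against 9.97% of all genes higher and 22.6% lower. Those with the smallest adjusted p were *Khdrbs3* (1.89) and *Tdrd6* (2.74), which rose, and *Elavl2* (-4.68) and *Msi2* (-2.54), which fell. In the step to secondary spermatocytes *Msi2* rose (1.5) and *Ythdc2* (-1.70) and *Elavl1* (-1.28) fell, and in the last step none of the 49 passed.

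Across the 20 sorted libraries, which share mice and gates, the 10 genes formed no single pattern. Of their 45 pairs the closest were *Pabpc2* and *Papolb* (Pearson r = 0.98 of log2 levels), *Ddx25* and *Pabpc2* (0.93), *Dazl* and *Cpeb1* (0.91) and *Ddx25* and *Papolb* (0.90), and the most opposed were *Cpeb1* and *Papolb* (-0.79). Among 13279 genes with a mean of at least 1 RPKM, those most like *Papolb* were *Tekt3* (0.99) and *1700123L14Rik* (0.98), and those most like *Pabpc2* were *Prdx6b* and again *1700123L14Rik* (both 0.98). *Ybx2* was closest to *Pla2g2c* and *Ldhc* (both 0.97), *Ddx25* to *Morc2b* and *Mroh2b* (both 0.97), and *Cpeb2* to *Sun3* and *Sox6* (both 0.97). *Dazl* was closest to *Atrn* (0.98) and *Esf1* (0.97), *Cpeb1* to *Zcwpw1* (0.96) and *Ints3* (0.95), and *Boll* to *Psip1* and *Fyttd1* (0.96 and 0.95 in that order). *Pabpc1* (*Ddx1* and *Cln6*, both 0.91) and *Tarbp2* (*Acsl6* and *Tubd1*, both 0.91) had the least close neighbours. These are descriptions over 20 points that are not independent, and carry no test.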

How the data were processed

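Polyadenylated RNA of 28 libraries was analysed. RPKM values per transcript were deposited, which the authors made from read pairs aligned by TopHat2 with the Ensembl release 72 annotation. Transcripts were matched to genes with GENCODE M21 (GRCm38), 90339 of 94480 (95.6%), those with a missing value in any library (13982) were left out, and 78640 were summed into genes. The 10 genes and all lists were chosen with earlier results of these data known.

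Genes with a mean of at least 0.1 RPKM were tested on log2(RPKM + 0.1), a scale that understates changes of low genes, with limma 3.58.1 (lmFit, eBayes with trend) in R 4.3.3, over all 20 sorted libraries with genotype as covariate, or 1 mean per genotype and gate, with Benjamini-Hochberg adjustment over all genes. PEER and PoissonSeq, which the study names, were not run, and its quantile normalization is an alternative. The fit was tested on simulated data. In 27 libraries RPKM times length fell on whole reads for 93.1 to 94.5% of low values (within 0.06 of a read, 12.0% by chance) and in knockout 613 for 12.5%. Overlapping transcripts carry the same reads in those 27 libraries: the read equivalents of the 3 coding *Ybx2* transcripts differ by 1.007 to 1.105 times, and by 32.1 times in knockout 613, whose sums for genes of several transcripts are lower by construction. So levels were compared between genes on the longest CCDS transcript (a coding transcript of the consensus set).

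Libraries of 1 animal are paired by the mouse number in the labels. Deviations from group means correlated with a median of 0.48 over 22 same-mouse pairs and -0.05 over 151 pairs of different mice. The block (limma duplicateCorrelation, correlation 0.361 for gates) is an alternative and its value is given where it changes a call. Other alternatives were the pseudocount, the filter, 1 transcript per gene, 1 genotype, the quantification batch as covariate and leaving out each mouse. Chosen after seeing the data were the CCDS transcript, leaving out the knockout 544 spermatogonia library, leaving out mice 648 and 286, and taking apart the 3 testes with late spermatid transcripts and the other 4. Named are the 10 genes, 12 set relatives, in each step and direction the 2 listed regulators of smallest adjusted p and the 2 genes most correlated with each member. Within-mouse and within-batch values carry no test. Sequences are from RefSeq (GRCm38.p6), read with Biopython 1.88, and figures were drawn with matplotlib 3.10.9. Exact permutation tests used Python 3.11.15.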

Additional observations from a re-analysis of the deposited data

How the results depend on the processing

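In the step from spermatogonia to primary spermatocytes 6203 genes and 6 of the 10 passed. Knockout libraries alone gave 0 genes and 0 of the 10, and leaving out mice 648 and 286 gave 2309 genes and 0 of the 10. Leaving out each mouse gave 3312 to 7415 genes and 1 to 9 of the 10, with 3384 genes and 1 of the 10 without wildtype 178 and 3312 genes and 1 of the 10 without wildtype 648. The *Cpeb2* difference turned negative on the longest transcript (-0.36), on the longest CCDS transcript (-0.36), in knockout libraries (-0.27) and without mice 648 and 286 (-0.96). The longest and the longest CCDS transcript of *Cpeb2* are the same. On it knockout 613, whose transcript values are not comparable, measured 0 RPKM and the other primary spermatocytes 12.6 to 21.6 RPKM. This transcript was not fitted without knockout 613, and the cause of the negative values was not tested. Any difference among the gates (10777 genes, 7 of the 10) became 106 genes and 0 of the 10 in knockout libraries and 2 of the 10 without mice 648 and 286, and ran from 6894 to 12252 genes and from 2 to 8 of the 10 over left-out mice (2 without 178 or 648, 3 without 286).

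For secondary against primary spermatocytes (1747 genes, 0 of the 10), wildtype libraries alone gave 0 genes and knockout libraries 12. *Dazl* alone passed, 1 of the 10, without the knockout 544 spermatogonia library and without mice 648 and 286. Leaving out each mouse gave 257 to 2977 genes (356 without 178, 963 without 544, 257 without 550, 2977 without 613) and 0 to 1 of the 10 (*Dazl* without 286). For spermatids against secondary spermatocytes (235 genes), a pseudocount of 1 gave 27, no filter 141, quantile normalization 76, 1 transcript per gene 82 (longest, or longest CCDS), either genotype alone 0, leaving out mice 648 and 286 372, and leaving out each mouse 0 to 696 (0 without 178, 56 without 351, 1 without 544, 41 without 550, 696 without 613).

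For knockout against wildtype (0 genes in each gate), spermatogonia gave 2 genes at a pseudocount of 0.01, 3 with no filter, 1 with the batch as covariate, 572 without mice 648 and 286 and 0 to 1360 over left-out mice, with 0 to 5 of the 10 (5 without knockout 286, which leaves knockout 544 alone, assumed to vary like the other groups). Primary spermatocytes gave 2 genes at a pseudocount of 0.01, 402 with the batch as covariate and 0 to 2 over left-out mice. Secondary spermatocytes gave 1 with no filter, 1 with the batch and 0 to 1 over left-out mice, and spermatids gave 1 after quantile normalization, 1 with the batch and 0 to 1 over left-out mice. Whole testis gave 605 in the 4 testes poor in late spermatid transcripts (648, 269, 286 and 308, chosen after seeing the data). There the wildtype arm is the single testis 648, assumed to vary like the knockouts and the only one outside their batch, so genotype and batch cannot be told apart. None of the 10 was among these except where a count of the 10 is given.

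Pairing libraries by animal, as a random block, gave 4207 genes and 1 of the 10 for secondary against primary spermatocytes, 1476 genes for spermatids against secondary spermatocytes and 3 genes for knockout against wildtype primary spermatocytes. It added *Boll*, *Pabpc1* and *Tarbp2* in the first step and *Dazl* in the second, as given above, and changed no other call of the 10 within a step. The ratios between relatives kept the direction of their median change within mice on the longest and on the longest CCDS transcript. Precision is limited by the 2 to 4 mice per genotype and gate. In the ovary, depth limits what can be said of *Boll* and *Pabpc2* to levels above 0.0514 and 0.0220 RPKM, those of 3 reads.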
